A study of Drosophila melanogaster with 12 samples.

Results

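The 10 genes described here encode proteins of the sarcomere, the contractile unit of muscle. They were chosen by symbol (Mhc, Mlc1, Mlc2, Tm1, Tm2, up, wupA, sls, bt and Prm), and all 10 were found among 17813 genes and spike-ins in the deposited table. Wandering third-instar larvae of Drosophila melanogaster (wild-type strain Oregon-R) gave 3 RNA samples, each from 40 animals. It was sequenced either after Ribo-Pop, in which biotinylated oligonucleotides antisense to rRNA are pulled out with streptavidin beads (depleted), or without it (input). Each was made into random-primed libraries, which read the whole length of an RNA, and into poly(A)-primed QuantSeq libraries, which read its 3′ end. The 4 conditions (random-primed depleted, random-primed input, poly(A)-primed depleted and poly(A)-primed input) had 3 libraries each, numbered 1 to 3. The larvae were not dissected, so muscle RNA is one part of a whole-animal mixture.

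In a sarcomere, thick filaments of myosin slide along thin filaments of actin. Mhc encodes the heavy chain of muscle myosin, Mlc1 its essential light chain and Mlc2 its regulatory light chain. Prm encodes paramyosin and miniparamyosin, which lie in the thick filament. Tm1 and Tm2 encode tropomyosins, and up and wupA encode troponin T and troponin I, which together make thin filaments respond to calcium. The giant genes sls and bt encode Sallimus (with kettin) and projectin, which are titin-like proteins of the sarcomere. In the larva these proteins fill the body wall muscles with which it crawls.

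The 10 genes lie on 5 chromosome arms or chromosomes in the BDGP6.54 annotation, a later release of the assembly used for counting. Among the genes of the thick filament, Mhc lies at 2L:16766566-16788766 on the plus strand with 21 annotated transcripts. Mlc1 lies at 3R:27657078-27660177 and Mlc2 at 3R:30171438-30174551, both on the minus strand, and Prm at 3L:8732858-8745310 on the minus strand. Among those of the thin filament, the neighbours Tm1 (3R:15278220-15308779) and Tm2 (3R:15310193-15315197) share the plus strand, and up (X:13593474-13602578) and wupA (X:18105568-18116922) the minus strand. The giant genes are sls (3L:2039681-2115611, minus strand) and bt (4:724400-776474, plus strand). The longest annotated transcript was 56489 bases for sls and 27666 for bt, and between 1347 (wupA) and 7341 (Mhc) for the other 8. Tm1 overlaps 2 genes and sls 1 gene, all annotated on the opposite strand, and the other 8 overlap none.

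Estimated counts outside rRNA and spike-ins were between 9037947 and 12422418 in the random-primed depleted libraries, but between 428039 and 596423 in the random-primed input libraries, where rRNA took 96.2% to 97.3% of all counts. With poly(A) priming they were between 2495307 and 4199300 after depletion and between 3311445 and 5709119 in the input. As an example, Mhc had 15990, 19005 and 4988 counts in the random-primed depleted libraries and 714, 878 and 240 in the random-primed input libraries. Averaged over its 3 libraries, every condition held at least 10 CPM (counts per 1000000 counts outside rRNA and spike-ins) of all 10 genes.

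The larval muscle label held in the markers. The larval muscle actins Act57B and Act87E averaged 2465 ± 1052 and 207 ± 71.5 CPM in the random-primed depleted libraries (SD, n = 3). In the same libraries TpnC73F averaged 536, Mlp84B 458, Mlp60A 76.2 and TpnC47D 12.2 CPM. The flight muscle genes were near 0: over the 3 libraries of that condition Act88F had 64.4 counts, TpnC4 (a flight muscle troponin C) 11 and fln (flightin) 1. Act88F and fln had no count in any poly(A)-primed library, which allows up to 3 counts in each. In these whole-larva samples, fewer muscle cells and less RNA per muscle cell cannot be told apart.

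Per unit length, Mlc2, wupA, Tm1 and up were the most abundant members, and sls and bt the least. In the random-primed depleted libraries, the deposited TPM (a transcript level corrected for length and depth), rescaled to RNAs outside rRNA, averaged 695 ± 307 for Mlc2, 630 ± 132 for wupA, 558 ± 194 for Tm1 and 539 ± 255 for up (SD, n = 3). They averaged 352 ± 86.0 for Mlc1, 330 ± 147 for Tm2, 186 ± 69.4 for Prm and 179 ± 92.0 for Mhc. The 2 giant genes averaged 84.3 ± 13.7 TPM for bt and 33.4 ± 13.5 TPM for sls. The ranges of neighbours in this order overlapped for every pair except bt over sls. These TPM hold only counts assigned to spliced transcripts. In the poly(A)-primed libraries, HTSeq counts on annotated exons were 1.79 to 2.56 times that part for sls and 1.04 to 1.08 times for bt. How far this split lowers sls in the random-primed libraries was not tested. Within a library the order was tighter, since up lay above Mlc1, Tm2 above Prm and Mhc above bt in 3 of 3 libraries. The random-primed input libraries gave the same 3 genes first and the same 5 last, and exchanged only Mlc1 (435 ± 112 TPM) and up (411 ± 193 TPM), whose ranges overlapped.

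Libraries of one condition differed in the sarcomere genes. In the counts assigned to spliced transcripts, Mhc had 1282, 1567 and 548 CPM in random-primed depleted libraries 1, 2 and 3, against 1278, 1462 and 554 CPM in random-primed input libraries 1, 2 and 3. Its poly(A)-primed values were 211, 301 and 110 CPM after depletion, against 158, 179 and 87.9 CPM in the input. Library 3 was thus the lowest for Mhc in all 4 conditions, and the depleted and input libraries of a number lay closer to each other than to those of another number in the random-primed pairs.

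**Figure D1:**
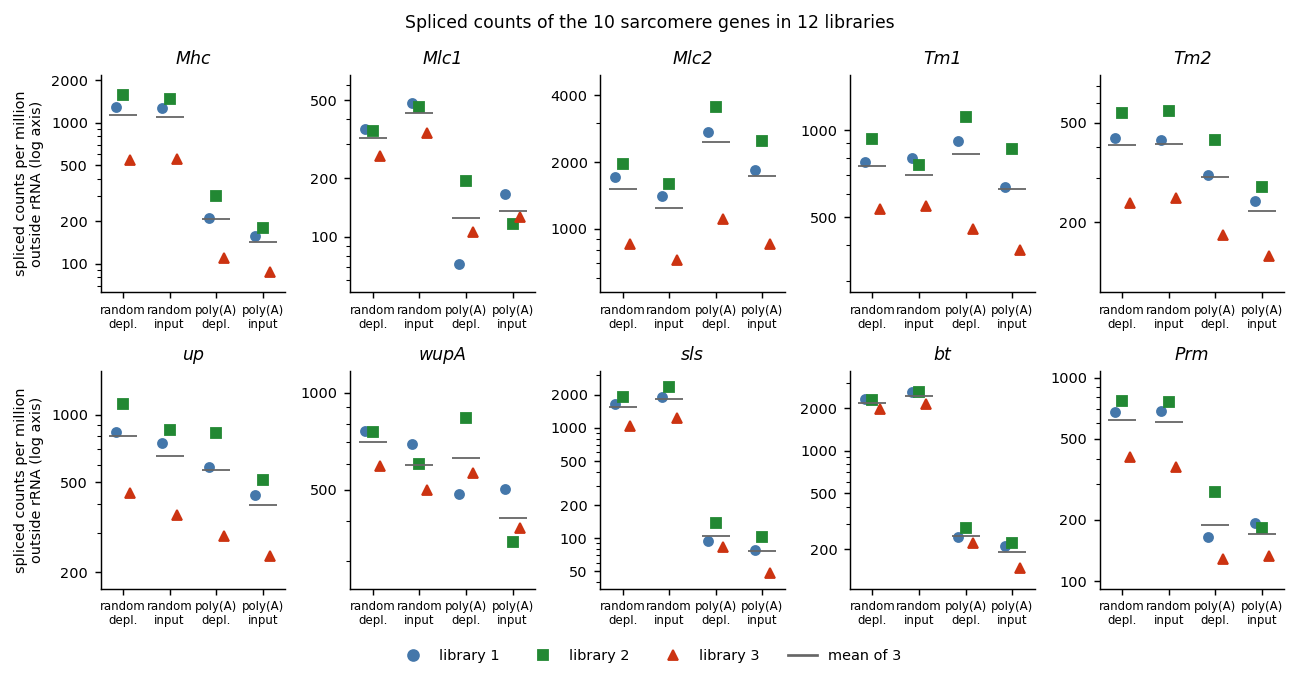
Spliced CPM relative to counts outside rRNA and spike-ins (log axis, each panel on its own range) for the 10 sarcomere genes. Each point is a library, coloured by its number, and the line is the mean of 3. Library 3 (red triangles) is the lowest in every condition for Mhc, Mlc2, Tm1, Tm2, up, sls, bt and Prm.

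The regulatory light chain Mlc2 had 1716, 1961 and 851 CPM in the random-primed depleted libraries, against 1408, 1586 and 724 CPM in the random-primed input libraries. It had 2743, 3543 and 1109 CPM in the poly(A)-primed depleted libraries, against 1851, 2486 and 858 CPM in the poly(A)-primed input libraries. Mlc2 thus followed Mhc in each condition, with library 2 highest and library 3 lowest. The TPM of Mlc2 over that of Mhc stayed between 3.65 and 4.53 in the random-primed depleted libraries and between 3.17 and 3.83 in the random-primed input libraries. Troponin T (up) likewise stayed between 2.79 and 3.49 times the TPM of Mhc in the random-primed depleted and between 2.52 and 2.79 times in the random-primed input libraries.

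The thin filament genes Tm1, Tm2 and up and the paramyosin gene Prm had the same order of libraries after random-primed depletion. Tm2 had 434, 546 and 239 CPM in the random-primed depleted libraries, against 428, 555 and 250 CPM in the random-primed input libraries. up had 838, 1114 and 451 CPM after depletion, against 752, 852 and 360 CPM in the input. Prm had 681, 770 and 406 CPM in the random-primed depleted libraries and 685, 763 and 362 CPM in the input, and Tm1 lay between 535 and 935 CPM after depletion and between 545 and 802 CPM in the input. Each of the 4 genes was lowest in library 3 of both conditions, and in each the depleted and input ranges overlapped.

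Mlc1, wupA and bt were less low in library 3. The essential light chain Mlc1 had 358, 350 and 258 CPM in random-primed depleted libraries 1, 2 and 3, against 484, 463 and 341 CPM in the random-primed input. Its TPM over that of Mhc was 1.96, 1.57 and 3.29 in the random-primed depleted libraries and 2.64, 2.24 and 4.44 in the random-primed input libraries, highest in library 3 of both. Troponin I (wupA) had 762, 756 and 593 CPM in the random-primed depleted libraries, against 692, 598 and 498 CPM in the random-primed input libraries. Projectin (bt) had 2299, 2272 and 1961 CPM after depletion, against 2614, 2589 and 2147 CPM in the input.

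Counting spliced and intronic reads together, library 3 was the lowest of its condition in all 4 conditions for 7 of the 10 members, beside 18.3% of the 4985 genes that averaged 10 CPM or more in every condition. The other members were sls, whose intronic counts are described below, and Mlc1 and wupA, which differed only in the poly(A)-primed libraries. Mhc, Mlc2, Tm2 and up had under 0.6 of the mean of libraries 1 and 2 in library 3 of every condition, beside 1.34% of the same genes. The median of the 10 members in library 3 over the mean of libraries 1 and 2 was 0.605 (random-primed depleted), 0.610 (random-primed input), 0.538 (poly(A)-primed depleted) and 0.637 (poly(A)-primed input), beside 0.932, 0.933, 0.958 and 0.990 over the 4985 genes. Over the 4985 genes, library 3 was the lowest in all 4 conditions for 913, library 1 for 70 and library 2 for 292. In each condition library 3 also had the fewest counts outside rRNA and the highest rRNA percent. That percent was 33.4, 97.3, 23.4 and 13.8 in the order above, against at most 24.6, 96.6, 21.9 and 13.4 in the other libraries. Library 3 was singled out after the values were seen, so these are descriptions with no test.

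**Figure D2:**
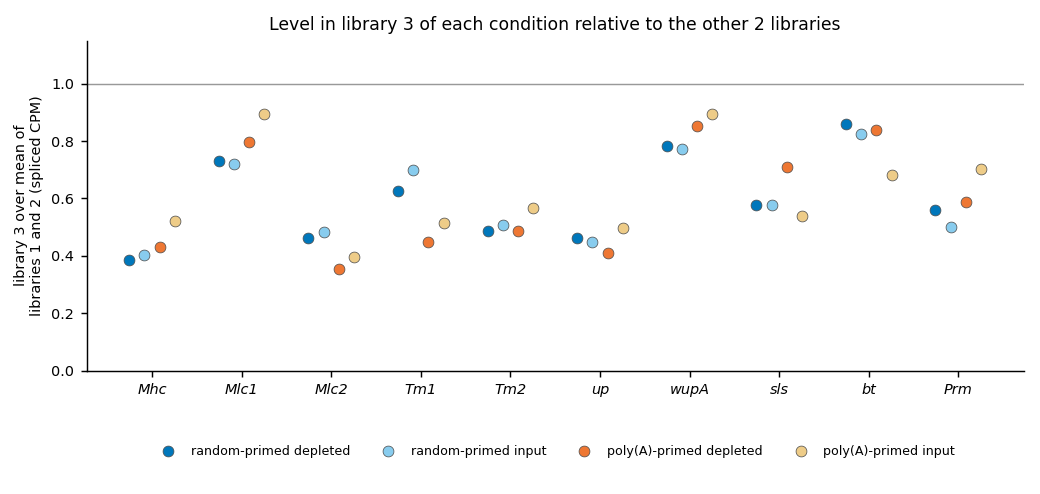
Level of each sarcomere gene in library 3 relative to the mean of libraries 1 and 2 (spliced CPM), 1 point per condition. All points lie below 1, from 0.353 for Mlc2 in the poly(A)-primed depleted libraries to 0.896 for Mlc1 and wupA in the poly(A)-primed input libraries.

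The marker lists did not move together in library 3. The 6 larval muscle markers (Act57B, Act87E, TpnC47D, TpnC73F, Mlp60A and Mlp84B) had 0.520 to 0.656 of the mean of libraries 1 and 2, by their summed CPM. The 6 fat body markers had 0.765 to 0.896, the 4 neuronal markers 0.888 to 1.06 and the 5 salivary gland glue genes 1.06 to 1.46. All 6, all 4 and all 5 of these were above 0 in every library. In the muscle list, Act57B averaged 2465 of 3754 summed CPM in the random-primed depleted libraries. TpnC73F alone had 0.75 to 0.89 and Mlp84B 0.70 to 0.86 in library 3. Of 16 other muscle genes averaging 10 CPM or more in every condition, 5 were lowest in library 3 of all 4, beside 18.3% of 4985 genes. Another muscle gene, Zasp66, was higher there, at 1.11 to 1.16. The parts of tissue make-up, rRNA content and depth in the low values of library 3 were not tested.

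With poly(A) priming Mlc1 and wupA left the pattern of the other members. Mlc1 had 72.9, 194 and 106 CPM in the depleted libraries, against 165, 116 and 126 CPM in the input libraries. wupA had 486, 833 and 562 CPM in the depleted libraries, against 501, 344 and 379 CPM in the input libraries. Both were thus highest in library 2 after depletion and in library 1 of the input, and their depleted and input ranges overlapped. In the random-primed libraries neither gene did this. The HTSeq counts of Mlc1, not scaled for depth, were 320, 776 and 273 after depletion and 735, 691 and 441 in the input.

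As a measure of likeness, the deviation of each log2 CPM from its condition mean was correlated over the 12 libraries. The correlation of a member with the mean of the other 9 was 0.982 for up, 0.973 for Tm2, 0.971 for Mhc and Prm, 0.948 for Mlc2, 0.931 for Tm1 and 0.901 for bt. It was 0.644 for wupA, 0.583 for Mlc1 and 0.562 for sls. Outside the members, the 10 genes most like their mean were Not1, GCS2alpha, zip, CG44245, Rpn1, Bruce, lncRNA:IBIN, CG8160, CDC50 and CG9246, with r from 0.984 to 0.968. None of the 10 is among the 25 other muscle genes listed for comparison. Of those, 16 could be compared, with a median r of 0.782, beside a median of 0.210 over 4975 genes, 240 of which exceeded 0.9. The points share libraries and depth, so these values are a description.

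Depletion was compared with input to ask whether removing rRNA shifts other RNAs. Without regard to library number, no sarcomere gene passed an adjusted p of 0.05 (quasi-likelihood test of edgeR, Benjamini-Hochberg over all genes). That was 0 of 10 members beside 2.34% of 10893 genes in the random-primed and 4.85% of 9530 genes in the poly(A)-primed libraries. At an unadjusted p under 0.05 there were 1 random-primed and 0 poly(A)-primed members. DESeq2 called none either, with 2 and 0 members at an unadjusted p under 0.05. The log2 fold changes (depleted over input) ran from -0.47 (Mlc1) to 0.23 in the random-primed libraries, with a median of -0.01 over the members and 0.06 over all genes. The poly(A)-primed values ran from -0.35 (Mlc1) to 0.40 (wupA), with a median of 0.22 over the members and 0.02 over all genes.

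The spread between libraries made these intervals wide. For Mhc the random-primed log2 fold change was -0.02 (SE 0.41, 95% interval -0.95 to 0.92), an interval of nearly 1 log2 unit either way. The coefficient of variation over 3 libraries had a median of 27.7% over the members in the random-primed depleted and 27.0% in the random-primed input libraries, beside 12.1% and 18.9% over 4985 genes. For poly(A)-primed depleted and input libraries it was 40.0% and 25.2% over the members, beside 14.4% and 13.6%.

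With the library number as a block, small changes of single members passed the test in the random-primed libraries. Every comparison within a number assumes that equal numbers mark one RNA sample, which the labels do not say. Numbers 1 and 2 are the less sure ones (processing, below). The essential light chain Mlc1 fell by 0.46 on the log2 scale (SE 0.06, adjusted p = 1.183e-04) and projectin (bt) fell by 0.22 (SE 0.04, adjusted p = 0.0023). The regulatory light chain Mlc2 rose by 0.23 (SE 0.05, adjusted p = 0.0035) and troponin T (up) rose by 0.23 (SE 0.06, adjusted p = 0.026), as did sls by 0.22 (SE 0.05, adjusted p = 0.0063). These were 3 of 10 members called higher, beside 2.44% of all genes, and 2 of 10 called lower, beside 5.43%. The members had at least 108 counts in each random-primed input library. The share over genes with counts like theirs was not computed, so the 2 shares may differ in power. Each called member changed in the same direction in 3 of 3 numbers. The depleted CPM over the input CPM was 0.738, 0.758 and 0.760 for Mlc1, 0.878, 0.879 and 0.916 for bt, and 1.22, 1.24 and 1.18 for Mlc2 in numbers 1, 2 and 3. For up it was 1.11, 1.31 and 1.23, and for sls 1.12, 1.17 and 1.34.

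**Figure D3:**
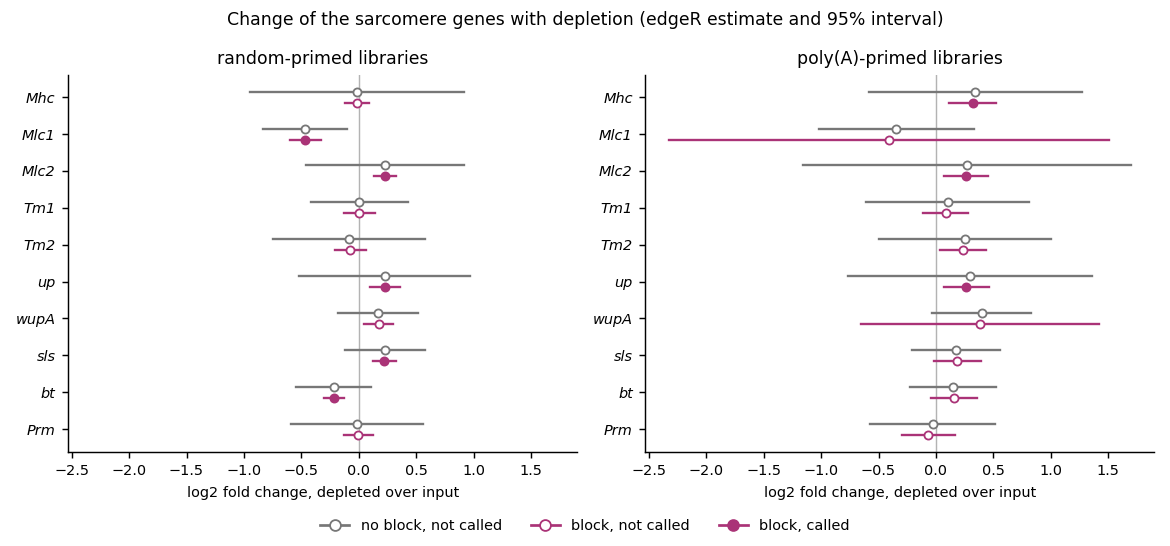
Estimated log2 fold change (depleted over input) of each sarcomere gene, with its 95% interval from edgeR, without a block (grey) and with the library number as a block (purple, filled where adjusted p is under 0.05). In the random-primed libraries Mlc1 and bt lie below 0 and Mlc2, up and sls above it with the block, and no interval without a block belongs to a called gene.

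Only Mlc1 and bt held under every form of the blocked random-primed fit that was run. Leaving out both libraries of a number gave adjusted p of 0.0013 to 0.0036 for Mlc1 and of 0.0025 to 0.041 for bt, while without number 2 the adjusted p was 0.12 for Mlc2, 0.43 for up and 0.057 for sls, and without number 3 it was 0.082 for up. Scaling by the spike-ins moved the median of all genes to -0.10. On that scale Mlc1 fell by 0.62 and bt by 0.38 (adjusted p = 1.666e-06 and 2.570e-06). Mlc2, up and sls were then at 0.07, 0.07 and 0.06 and not called, while Mhc and Tm2 were called lower, at -0.17 and -0.23 (adjusted p = 0.029 and 0.026). In that fit 1092 of 10893 genes were called lower and 64 higher.

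The sign for sls depended on which reads were counted. With spliced counts alone in the blocked random-primed fit it fell by 0.33 (SE 0.04, adjusted p = 1.746e-05), and its spliced CPM ratio was 0.873, 0.816 and 0.840 in numbers 1, 2 and 3. In that fit Mlc2 and up were called higher (2 of 10 members, beside 2.14% of all genes) and Mlc1, bt and sls lower (3 of 10, beside 5.29%). The 3 called lower include both giant genes, but the spliced part of sls may leave out reads on annotated exons (HTSeq counts, below).

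With poly(A) priming the pairing of numbers 1 and 2 is unsure. Over 4985 genes, depleted library 1 correlated with input library 2 by 0.421 and with input library 1 by 0.135. The block gave 3 members called higher and 0 lower. Beside them, 8.25% of all genes were called higher and 1105 of 9530 lower. Mhc rose by 0.32 (SE 0.10, adjusted p = 0.019), up by 0.27 (SE 0.10, adjusted p = 0.047) and Mlc2 by 0.26 (SE 0.10, adjusted p = 0.049). All 3 were near the threshold, and without both libraries numbered 3, or with spike-in scaling, none of the members was called. Without both libraries numbered 2, none was called higher. bt was at 0.16 and sls at 0.19, neither called. Mlc1 and wupA had wide errors (SE 0.50 and 0.31), and the CPM ratio of Mlc1 was 0.442, 1.67 and 0.841 in numbers 1, 2 and 3. Without number 1, wupA was called higher, by 0.69, and without number 2 Mlc1 was called lower, by -0.90.

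Whether depletion acted differently in the 2 primings was tested as an interaction over all 12 libraries. None of the 10 members was called (edgeR, 0 also at an unadjusted p under 0.05), beside 0.456% of 11175 genes. The largest estimate was that of bt, at -0.25 (random-primed minus poly(A)-primed log2 change, 95% interval -0.73 to 0.23), and with the block its adjusted p was 0.24.

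The spike-ins, which had been added before depletion, gave the RNA left per spike-in count. The summed members had 384 ± 118 counts per 1000 spike-in counts in the random-primed depleted and 405 ± 133 in the random-primed input libraries, or 94.7% (exact two-sided permutation test, p = 0.7, n = 3 each). The poly(A)-primed values were 92.4 ± 47.0 after depletion and 79.7 ± 32.5 in the input, or 116% (exact permutation test, p = 0.7, n = 3 each). Per gene the random-primed values ran from 65.1% for Mlc1 and 76.8% for bt to 106% for up and Mlc2, and no p lay below 0.3. The smallest p that 3 against 3 libraries allow is 0.1, and the groups overlapped for every member. Within libraries of one number the summed members were lower after depletion in 3 of 3 numbers with random priming (0.908, 0.957 and 0.997 of the input) and higher in 3 of 3 with poly(A) priming (1.01, 1.33 and 1.05). An exact sign-flip test on the 3 pairs gave p = 0.25 in each, the smallest it allows.

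The members made up a small part of the RNA outside rRNA. Their summed share was 1.51% ± 0.189 in the random-primed depleted and 1.37% ± 0.224 in the random-primed input libraries (exact permutation test, p = 0.5, n = 3 each). The poly(A)-primed share was 0.586% ± 0.236 after depletion and 0.429% ± 0.140 in the input (exact permutation test, p = 0.4, n = 3 each). Within libraries of one number the share was higher after depletion in 3 of 3 numbers in both primings, by ratios of 1.04, 1.10 and 1.17 (random-primed) and 1.28, 1.49 and 1.25 (poly(A)-primed). The exact sign-flip test on the 3 pairs gave p = 0.25 in both, the smallest it allows. sls alone was 37.8% to 54.2% of the members' counts in the random-primed depleted libraries. Without it the random-primed share was 0.853% ± 0.230 after depletion and 0.832% ± 0.211 in the input, and was higher in 2 of 3 numbers.

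The long transcripts were far better represented after random priming. In the depleted libraries the spliced CPM of sls averaged 1538 ± 456 with random priming and 105 ± 29.6 with poly(A) priming, a ratio of 14.6 (SD, n = 3 each). The ratio was 8.75 for bt, 5.46 for Mhc, 3.28 for Prm and 2.59 for Mlc1, and in these 5 genes all 3 random-primed libraries lay above all 3 poly(A)-primed ones. For up, Tm2, wupA, Tm1 and Mlc2 the ratios were 1.41, 1.34, 1.12, 0.905 and 0.612, and the libraries overlapped. The exact permutation p was 0.1, the smallest possible, for each of the first 5 of these 10 comparisons. The count of 5 of 10 equals the background, since 50.4% of 4985 genes lay wholly above and 24.1% wholly below. With TMM effective library sizes and all counts, 4 members lay wholly above, a count made for the members only. The log2 ratios of Tm2, up and wupA then changed sign, to -0.12, -0.04 and -0.36, from values of 0.42, 0.50 and 0.18 of members whose libraries overlapped.

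**Figure D4:**
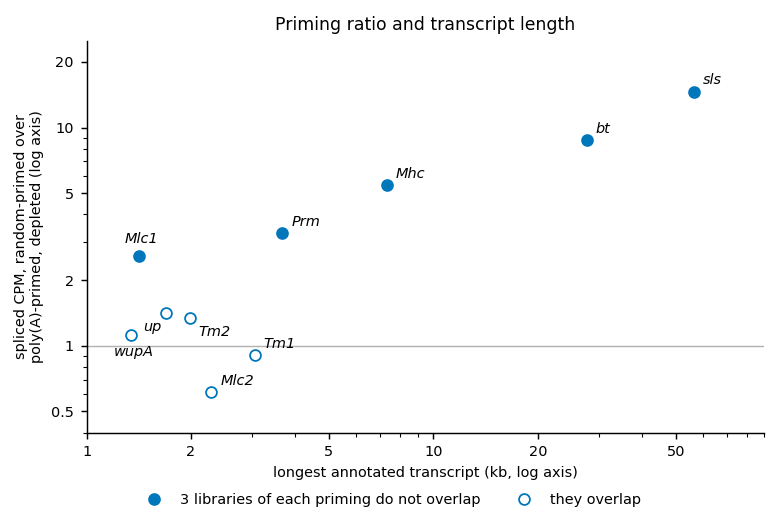
Mean spliced CPM with random priming over that with poly(A) priming in the depleted libraries, against the length of the longest annotated transcript (both axes log). Each point is a sarcomere gene, filled where the 3 libraries of each priming do not overlap, and sls and bt lie at the upper right at 14.6 and 8.75.

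Across the 10 members the log2 ratio went with the log2 transcript length (Pearson's r = 0.861, Spearman's rho = 0.661). Without sls and bt, r was 0.559 and rho 0.333 over 8 genes, so the relation rested largely on the 2 giants. Mlc1 and wupA, with longest transcripts of 1414 and 1347 bases, had ratios of 2.59 and 1.12. The 10 points come from the same 6 libraries, length enters the ratio by design, and the values are a description.

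Most members had few intronic counts, and in the random-primed depleted libraries sls had more than any other gene. Pooled over the random-primed depleted libraries, intronic counts were 0.0266% of the counts of Mlc2, 0.196% of Tm2, 0.254% of Mlc1, 0.446% of Mhc, 0.939% of bt, 0.972% of Prm, 0.991% of up and 1.23% of wupA. Tm1 had 7.06% and sls 75.6%. The median over 4033 protein-coding genes with introns and at least 1000 counts was 3.01%, and 98.9% of those genes had a lower intronic share than sls. For the summed members the intronic share was 34.8% ± 10.8 after depletion and 28.0% ± 8.28 in the input (exact permutation test, p = 0.5, n = 3 each). It was higher after depletion in 3 of 3 numbers, by ratios of 1.18, 1.28 and 1.27 (exact sign-flip test on 3 pairs, p = 0.25, the smallest possible). Without sls it was 1.37% ± 0.426 after depletion and 1.65% ± 0.312 in the input, and lower in 3 of 3 numbers (exact sign-flip test, p = 0.25).

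The intronic and the spliced counts of sls did not move together between libraries. In random-primed depleted libraries 1, 2 and 3 sls had 4595, 4400 and 6021 intronic CPM, against 3682, 3055 and 4026 in the random-primed input libraries. Its spliced CPM were 1664, 1917 and 1032 after depletion, against 1906, 2348 and 1229 in the input. Library 3 thus had the most intronic and the least spliced counts of sls in both conditions. The intronic values averaged 5006 ± 885 CPM after depletion and 3587 ± 492 CPM in the input (SD, n = 3 each) and did not overlap, which was not tested further.

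**Figure D5:**
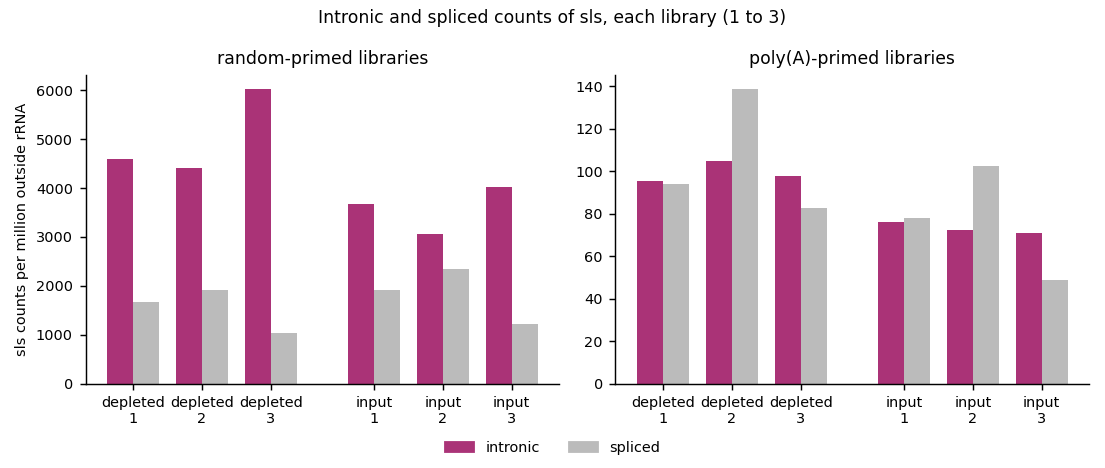
Intronic and spliced CPM of sls (relative to counts outside rRNA and spike-ins) in each library, depleted left of input, on separate scales for random-primed and poly(A)-primed libraries. In the 6 random-primed libraries the intronic bar is above the spliced one, with 6021 and 1032 CPM in random-primed depleted library 3.

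An annotated copy of the retrotransposon copia lies in an intron of sls, at 3L:2108306-2113451 on the same strand. Copia copies of at least 5000 bases lie in introns of 8 genes on the strand of the host and of 9 genes on the other strand. Of these 9 hosts, Lasp and CG43954 hold the same annotated copy. The gene with the second most intronic counts in the random-primed depleted libraries, Tg, also holds one on its own strand, with a mean of 14288 intronic counts, against 54883 for sls. The order was another with poly(A) priming, where sls averaged 349 intronic counts after depletion, Tg 614 and Eip63E, a further same-strand host, 2429. Over the 8 same-strand hosts the mean intronic counts of the random-primed depleted libraries ran from 251 to 54883, and over the 9 opposite-strand hosts from 7.10 to 924. The intronic CPM of Tg in library 3 was 1.25 times the mean of libraries 1 and 2 in the random-primed depleted and 1.34 times in the random-primed input libraries, beside 1.34 and 1.19 times for sls. In the poly(A)-primed depleted and input libraries it was 1.38 and 1.49 times for Tg, beside 0.975 and 0.954 times for sls. The random-primed intronic CPM of Tg averaged 1296 ± 200 after depletion and 1509 ± 264 in the input (SD, n = 3 each), lower after depletion where that of sls was higher, and its ranges overlapped. The part of copia reads in the intronic counts of sls was not tested. Whether the Oregon-R larvae carry the annotated copies was not tested either, nor how reads that match more than 1 copy were divided among hosts. The intronic counts given for sls are thus those assigned to it.

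With poly(A) priming sls had 95.5, 105 and 97.7 intronic CPM after depletion, against 76.1, 72.4 and 70.8 in the input. HTSeq counts, which cover annotated exons, were 1.79 to 2.56 times the spliced estimate of sls there, and 0.996 to 1.08 times the sum of the spliced and intronic estimates. For Tm1 the HTSeq counts were 1.12 to 1.36 times the spliced estimate and 1.04 to 1.07 times the sum. Some reads that Kallisto assigned to introns of sls and Tm1 were thus counted on annotated exons by HTSeq. For the other 8 members HTSeq stayed within 1.02 to 1.10 times the spliced estimate.

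Of 25 genes listed for comparison (troponin C genes, actins, Z-disc and myosin-associated proteins), 19 were tested in the random-primed and 18 in the poly(A)-primed libraries. None was called in either without a block (edgeR), with 0 random-primed and 3 poly(A)-primed genes at an unadjusted p under 0.05. DESeq2 called 0 random-primed genes and 1 poly(A)-primed gene, TpnC73F. The median log2 fold changes were -0.13 and 0.03. With the block, 2 rose and 3 fell in the random-primed libraries. Named after their values were seen, these were Act57B (0.29) and Mlp84B (0.25), and sals (-0.40), Zasp52 (-0.36) and Msp300 (-0.17). Of the poly(A)-primed genes 3 rose, TpnC73F (0.57), Actn (0.47) and Mf (0.37), and TpnC47D fell (-0.69). With spike-in scaling and the block, none of these was called higher.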

How the data were processed

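The authors removed adapters with Cutadapt or BBDuk and assigned reads strand-specifically with Kallisto to transcripts, spike-ins and introns with short flanks. The deposited estimated counts per gene are a spliced and an intronic part with their sum, not normalized, and the authors also gave TPM of the spliced part. HTSeq counts from STAR alignments were deposited by the authors for the 6 poly(A)-primed libraries. HTSeq's summary lines held 7.81% to 9.88% of reads and were left out. A table of the authors' own fold changes and p-values was not used.

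edgeR 4.0.16 (TMM, filterByExpr, robust quasi-likelihood) was fitted to all genes, on HTSeq counts for poly(A)-primed and on rounded Kallisto estimated counts, without rRNA genes, for random-primed libraries. DESeq2 1.42.0 was an alternative. The fits were tested on simulated data: 200, 198 and 184 of 200 genes changed 4-fold were recovered for the random-primed, poly(A)-primed and interaction fits. Spike-ins were 7 genes. Coordinates are from Ensembl 115 (BDGP6.54). Likeness used a prior count of 2. No sequence was printed, and probe matches were not analysed here.

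Libraries carry numbers 1 to 3 in every condition. Each of the 3 RNA samples gave input and depleted portions, but the labels do not say that equal numbers mark one sample. Deviations from the condition mean correlated between same-numbered depleted and input libraries by 0.250, 0.547 and 0.626 (random-primed) and 0.135, 0.417 and 0.736 (poly(A)-primed) over 4985 genes with at least 10 CPM, so the number was taken as pairing the libraries. Over all genes tested, number 1 gave 0.0509 and 0.0413. Over the 4985 genes, input 2 correlated with depleted 1 by 0.292 (random-primed) and 0.421 (poly(A)-primed), above the values of number 1. Poly(A)-primed input 1 correlated by 0.176 with depleted 2, also above number 1. Numbers 1 and 2 are thus less sure in both primings.

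All 10 members, the 25 other muscle genes, the marker lists and the 10 genes most alike were named by rule. Members and lists were chosen with earlier results of these data known. The 3 libraries of a condition come from independent RNA samples. Depth was 3503819 to 16889144 counts per library.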

Additional observations from a re-analysis of the deposited data

How the results depend on the processing

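No sarcomere gene was called without a block under DESeq2, spike-in scaling, no filter on low counts, a threshold of 0.01, the other counting, or with any 1 library left out (0 to 0 members in both primings). With the replicate block, 5 random-primed and 3 poly(A)-primed members were called. Among alternatives added after seeing the data, the block gave 5 random-primed members with spliced counts alone, and 5, 2 and 4 without both libraries numbered 1, 2 and 3. Over all genes, these fits called 229 higher and 566 lower of 10707 with spliced counts. Without numbers 1, 2 and 3 they called 181 and 429 of 11071, 97 and 402 of 11035, and 151 and 456 of 11464. The block gave 4 random-primed members with spike-in scaling, beside 64 higher and 1092 lower of 10893 genes. For poly(A)-primed libraries it gave 2 with Kallisto counts, and 3, 1 and 0 without numbers 1, 2 and 3. Over all genes, the Kallisto fit called 767 higher and 1106 lower of 9823. Without numbers 1, 2 and 3 the calls were 993 and 1104 of 9477, 345 and 739 of 9420, and 355 and 688 of 9731. Leaving out all libraries numbered 3 without a block gave 1 random-primed member, Mlc1 (-0.48, adjusted p = 0.018), beside 27 higher and 378 lower of 11464 genes. sls changed sign to -0.33 with the block and spliced counts alone. The cause of these shifts was not tested.

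Over all genes, the calls without a block were 7 higher and 248 lower (random-primed) and 95 and 367 (poly(A)-primed). With the block they were 266 and 591, and 786 and 1105. With spike-in scaling they were 3 and 159, and 4 and 119. With DESeq2 the random-primed calls were 15 and 441. Leaving out 1 library gave 1 to 7 higher and 142 to 293 lower (random-primed), and 9 to 140 and 136 to 421 (poly(A)-primed). The interaction had 36 and 15 calls, 633 and 125 with the block, and 14 and 9 with spliced counts.

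Depleted over input, the summed share was 1.10 (1.004 to 1.17 leaving out 1 library) in the random-primed and 1.36 (1.10 to 1.65) in the poly(A)-primed libraries. RNA per spike-in was 94.7% (80.0% to 111%) and 116% (86.7% to 146%). With the replicate block, added after seeing the data, the share ratios were 1.10 and 1.34. The intronic share ratio was 1.24 (1.03 to 1.49) and 0.827 without sls. Between 5 and 7 members lay wholly higher with random priming when 1 library was left out, against 5 with all. TMM effective library sizes gave 4 such members, lowered the log2 ratio of Mhc to 1.91, against 2.45, and turned 3 overlapping members negative. The share over all genes was not computed for these settings, and leaving out a library makes such a separation easier for any gene. On spliced counts sls had 72.9% of its input RNA per spike-in, against 104% on all counts. The random-primed input libraries had the fewest counts (428039 to 596423), and the lowest member had 108 there.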
